A study of Mus musculus with 12 samples.

Results

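The 10 genes described here are Edn2, Fgf2, Osmr, Il6st, Stat3, Cebpd, Socs3, Gfap, Serpina3n and Lcn2, which are known for their part in retinal gliosis and in the response of the retina to injury. They were picked by name from what they do, and each symbol matched 1 row of the 37991 genes in the deposited tables. mRNA was sequenced from whole retinas of male mice aged 8 weeks, in 12 libraries that form 4 genotypic classes of 3 libraries each. The classes are the homozygous F0 C57BL/6J, the reference strain, the homozygous F0 Cast/EiJ, a wild-derived inbred strain, and the reciprocal F1 hybrids, F1 B6xCast (C57BL/6J father, Cast/EiJ mother) and F1 CastxB6 (Cast/EiJ father, C57BL/6J mother). No class carried a transgene, an injury or a treatment, and each library was a pool of 6 to 8 retinas, so the spread between libraries is a spread between pools.

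Müller glia, the radial glia of the retina, and the astrocytes of its inner surface answer stress or the loss of photoreceptors by turning on intermediate filaments and secreted acute-phase proteins. A much studied route runs through cytokines of the interleukin-6 family, whose receptors share the subunit gp130 (Il6st) and pass the signal to the transcription factor STAT3, which in turn drives its own inhibitor, Socs3. Edn2, a ligand made by stressed photoreceptors, and Fgf2, a growth factor that protects them, are among the other early signals of a damaged retina.

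STAT factors bind the palindrome TTCNNNGAA, so a window around each gene's RefSeq start (GRCm38.p6, 250 bases before to 50 after) was searched for it. The window was found for 9 of the 10 genes, Cebpd being the one not in the table, and 2 of the 9 windows held the motif, against 8.3% of all 32851 windows. Both sites are given because these genes also differed between the alleles of the hybrids, with the motif in capitals, on the minus strand, and with positions found by matching the letters to NCBI37, the build of the deposited tables. The palindrome reads the same on both strands. The letters are those of the reference genome, and a match describes the letters only.
Gfap, chr11:102758498-102758526: atgggggtgcTTCCAGGAAgtcaggggca
Socs3, chr11:117830816-117830844: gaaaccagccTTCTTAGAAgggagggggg
In the GENCODE M1 models the Gfap motif fell in an exon of 1 of 3 transcripts and in an intron of 1, and the Socs3 motif fell in an intron of 1 of 3 transcripts and outside the other 2.

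A count equivalent is the number of read pairs that the authors' model assigned to a gene, normalised by them across libraries, and an FPKM is the same quantity per length, used wherever one gene is set beside another. In an F1 library the model gave 1 value for each allele, and the F1 total is their sum scaled to the size of an F0 library. Differences are on the scale of log2(count equivalents + 1) and adjusted p-values are from limma. Read pairs unique to 1 gene numbered 8158534 to 12363291 per library. The rod genes, defining markers of the retina, summed to between 796103 and 852604 count equivalents in every library, so the tissue label held. Each F1 library was sequenced on a second lane and mapped to a hybrid transcriptome, so a difference between F1 and F0 cannot be told apart from these steps.

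Per length, Il6st and Stat3 were the most abundant of the 10 genes in these retinas, at 15.0 ± 1.10 FPKM and 13.3 ± 1.45 FPKM (mean ± SD, n = 12 libraries). Their ranges over the libraries overlapped, at 12.5 to 16.1 FPKM for Il6st and 11.4 to 16.1 FPKM for Stat3. The other 8 genes were low, with means between 0.545 FPKM for Edn2 and 2.64 FPKM for Gfap. The reactive genes were thus detected in unchallenged retinas, though several of them rested on few read pairs.

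Between the F0 strains, 5 of the 10 genes passed the test. The cytokine receptor Osmr and the secreted inhibitor Serpina3n were higher in Cast/EiJ, and Edn2, the filament gene Gfap and the transcription factor Cebpd were lower. Of all 14452 genes tested, 33.8% passed, 17.2% higher and 16.6% lower in Cast/EiJ, so a count of 5 in 10 genes is read as no result about the group. The median difference was -0.17 over the 10 genes and 0.03 over all genes. The libraries of the strains overlapped neither for the 5 genes that passed nor for Socs3.

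In the F1 hybrids, 4 of the 9 genes with enough allele-specific read pairs differed between alleles, and in each of them the Cast/EiJ allele was the higher one. These were Serpina3n, Osmr, Socs3 and Gfap. Of 13414 genes tested, 47.0% passed, a share near that of the 9 genes, with 23.5% having a higher and 23.5% a lower Cast/EiJ allele. The median allelic difference was 0.44 over the 9 genes and 0.00138 over all genes. Gfap and Serpina3n were the members whose F0 difference and allelic difference were unequal by their own test, called the trans difference here, against 14.0% of all genes (5.64% with the F0 difference above the allelic one and 8.31% with it below, as in both members).

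**Figure D1:**
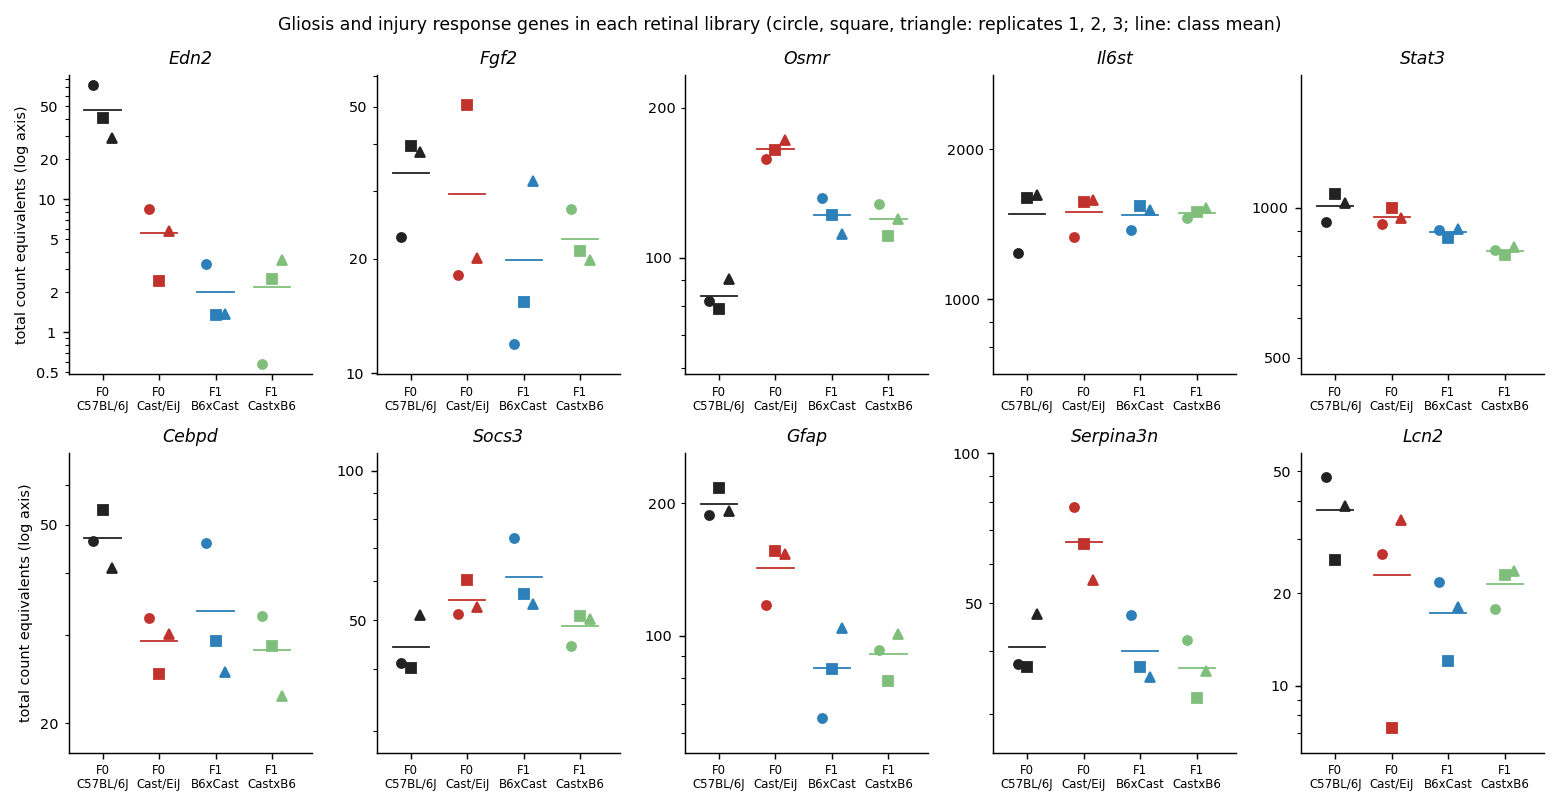
Total count equivalents of the 10 genes in the 12 retinal libraries on log axes, 1 panel per gene, with a symbol per replicate and a line at each class mean (F1: both alleles, scaled to an F0 library). Edn2 lay between 28.7 and 72.0 in F0 C57BL/6J and no higher than 3.49 in the hybrids, and Gfap lay below every F0 library in all 6 F1 libraries.

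Edn2 (chr4:119833811-119839965, plus strand; gene positions are on NCBI37) encodes endothelin-2, a peptide ligand that signals from photoreceptors to glia and vessels. In the F0 C57BL/6J libraries it had 72.3, 40.6 and 28.6 count equivalents, and in F0 Cast/EiJ 8.57, 2.40 and 5.75. The C57BL/6J libraries differed among themselves by a wide margin, yet the lowest of them was above the highest Cast/EiJ library. The fitted difference was -2.89 (SE 0.47, adjusted p = 0.0017), and it stayed past the threshold without any 1 library. Edn2 passed the filter on low values through the C57BL/6J libraries alone, since all 3 Cast/EiJ libraries were under the minimum of 10, and without that filter its adjusted p was 0.055.

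In the hybrids Edn2 was close to the limit of detection. The F1 B6xCast totals were 3.28, 1.35 and 1.39 scaled count equivalents, and those of F1 CastxB6 were 0.582, 2.50 and 3.49. All 6 F1 libraries thus lay below or among the Cast/EiJ ones, and none approached C57BL/6J. Against the mean of the F0 strains the F1 difference was -2.50 (SE 0.36, adjusted p = 5.1e-04), against F0 C57BL/6J alone it was -3.95 (SE 0.44, adjusted p = 7.1e-05), and against F0 Cast/EiJ alone it was -1.05 (SE 0.44, adjusted p = 0.088) and did not pass. As in the F0 test, Edn2 entered these fits through the F0 C57BL/6J libraries alone. Without the filter on low values its adjusted p against the mean of the strains was 0.0065. Levels this low make the size depend on the pseudocount, and with 5 in place of 1 the F1 difference from both strains was -1.68. Over the 6 F1 libraries 24 read pairs could be given to an allele, 19 to C57BL/6J and 5 to Cast/EiJ, which is 20.8% Cast/EiJ (Wilson 95% interval 9.24 to 40.5%), too few for the allelic test.

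Fgf2 (chr3:37211441-37304299, plus strand) encodes basic fibroblast growth factor. It had 22.9, 39.3 and 38.0 count equivalents in F0 C57BL/6J and 18.2, 50.3 and 20.1 in F0 Cast/EiJ. Cast/EiJ replicate 2 was the highest F0 library and the other Cast/EiJ libraries were the lowest, so the strains overlapped. The strain difference of -0.28 had a 95% interval from -1.19 to 0.62 (adjusted p = 0.62), and the allelic difference of 0.03 one from -0.56 to 0.62 (adjusted p = 0.94). Differences inside these intervals were not detectable at this depth. The strain value rested on single libraries, at -0.73 without Cast/EiJ replicate 2 and -0.03 without Cast/EiJ replicate 1, and it was -0.62 with edgeR on unique hits, of which Cast/EiJ replicate 2 had 17. Fgf2 overlaps 5 annotated genes, among them Nudt6 on the opposite strand, and the libraries did not keep the strand, so read pairs of the shared stretch cannot be assigned with certainty.

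Osmr (chr15:6763577-6824969, minus strand), the receptor subunit for oncostatin M, had the steadiest strain difference of the group. It stood at 82.2, 78.5 and 90.3 count equivalents in F0 C57BL/6J and at 159, 164 and 173 in F0 Cast/EiJ. Every Cast/EiJ library was far above every C57BL/6J one, a gap well beyond the spread within either strain. The strain difference was 0.98 (SE 0.13, 1.97-fold, adjusted p = 5.4e-04), and it passed under all 15 alternatives tried.

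The alleles of Osmr repeated this split inside the hybrids. The C57BL/6J allele had 73.2 to 86.4 count equivalents over the 6 F1 libraries (median 84.4) and the Cast/EiJ allele 133 to 173 (median 161). The ranges did not overlap, and the Cast/EiJ allele was higher in 6 of 6 libraries. The allelic difference was 0.95 (SE 0.08, 1.93-fold, adjusted p = 4.4e-08), and of 680 allele-specific read pairs 66.3% were from Cast/EiJ (Wilson 95% interval 62.7 to 69.8%). The F0 and the allelic difference differed by 0.03 (95% interval -0.28 to 0.34, adjusted p = 0.93). The F1 totals, 110 to 131 scaled count equivalents, lay between the strains, with a fitted difference of 0.52 from F0 C57BL/6J (SE 0.09, adjusted p = 0.0016) and of -0.45 from F0 Cast/EiJ (SE 0.09, adjusted p = 0.0023).

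**Figure D2:**
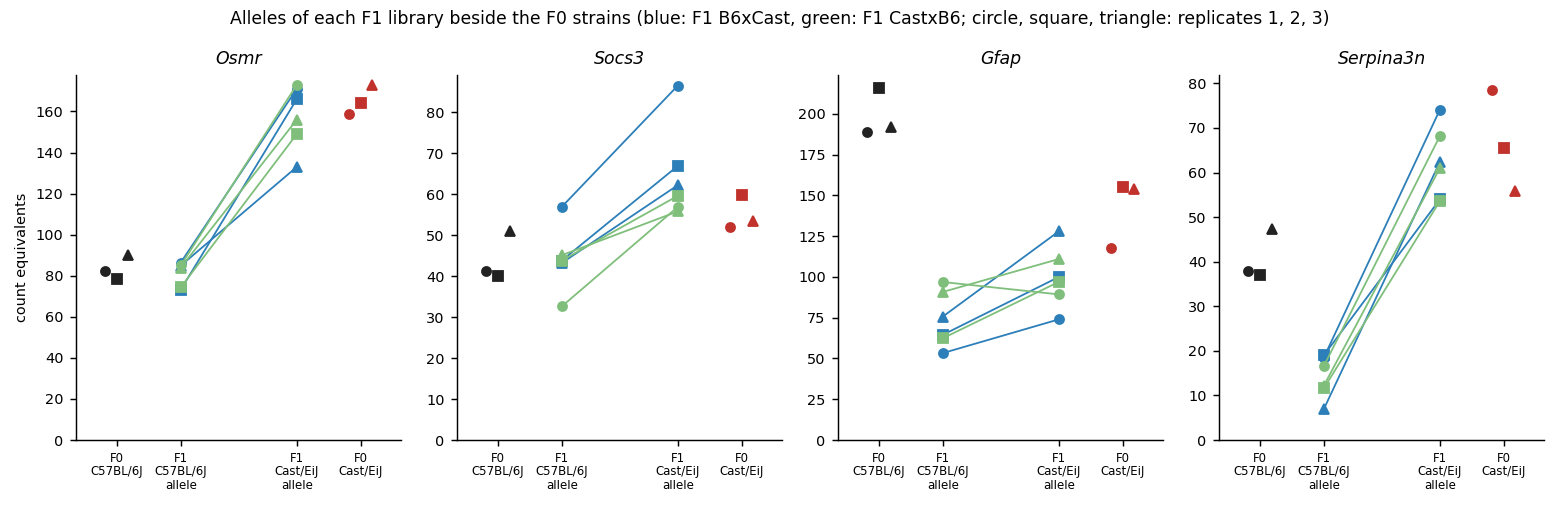
Count equivalents of Osmr, Socs3, Gfap and Serpina3n in the F0 libraries and for each allele of the F1 libraries, with a line joining the alleles of 1 library. The Osmr alleles sit at the level of the matching F0 strain, the C57BL/6J allele of Gfap (53.3 to 96.9) sits below F0 C57BL/6J (189 to 216), and the C57BL/6J allele of Serpina3n (6.95 to 19.0) sits below F0 C57BL/6J (37.0 to 47.3).

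Il6st (chr13:113265216-113297068, plus strand), the gp130 subunit that Osmr and the other receptors of the family pair with, passed the test in no comparison. Its count equivalents were 1240, 1590 and 1610 in F0 C57BL/6J and 1340, 1560 and 1590 in F0 Cast/EiJ, with replicate 1 the lowest of both strains. The strain difference was 0.02 with a 95% interval from -0.24 to 0.28, and the allelic difference 0.04 with one from -0.08 to 0.17. With 10525 allele-specific read pairs, 50.3% were from Cast/EiJ (Wilson 95% interval 49.4 to 51.3%). The F1 against F0 difference was 0.00 to 2 decimals (95% interval -0.16 to 0.16).

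Stat3 (chr11:100746412-100800854, minus strand), the transcription factor that carries the signal from gp130 to the nucleus, had 939, 1060 and 1020 count equivalents in F0 C57BL/6J and 933, 994 and 957 in F0 Cast/EiJ. The strains overlapped, and the difference of -0.06 had a 95% interval from -0.23 to 0.10. The alleles were near balance too, with 49.4% of 5379 read pairs from Cast/EiJ (Wilson 95% interval 48.1 to 50.8%) and an allelic difference of 0.04 (95% interval -0.05 to 0.12). Its F1 totals were nonetheless all below the lowest F0 library, at 805 to 906 scaled count equivalents against 927 to 1066. This difference from F0 was small, -0.20 (SE 0.04, 1.15-fold lower, adjusted p = 0.0056), and on the deposited log expression it no longer passed (adjusted p = 0.10). Stat3 overlaps Stat5a on the opposite strand.

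Cebpd (chr16:15887379-15888559, plus strand), a transcription factor of the acute-phase response, is entered as a pseudogene in the deposited annotation. It had 46.6, 53.4 and 40.8 count equivalents in F0 C57BL/6J and 32.8, 24.9 and 30.3 in F0 Cast/EiJ, with no overlap. The strain difference of -0.66 (SE 0.21, 1.58-fold lower, adjusted p = 0.042) was just past the threshold. It was lost without C57BL/6J replicate 1, 2 or 3 or Cast/EiJ replicate 2 or 3 (adjusted p 0.058 to 0.15), and with DESeq2 (adjusted p = 0.10). Its alleles overlapped, at 10.8 to 45.6 for C57BL/6J and 26.5 to 44.6 for Cast/EiJ, and the allelic difference of 0.32 (SE 0.22, adjusted p = 0.25) did not pass.

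Socs3 (chr11:117827393-117831361, minus strand) encodes the feedback inhibitor of gp130 signalling. The F0 C57BL/6J libraries had 41.2, 40.0 and 51.1 count equivalents and the F0 Cast/EiJ libraries 51.9, 59.9 and 53.5. The highest C57BL/6J library came within 1 count equivalent of the lowest Cast/EiJ one, and the difference of 0.32 (SE 0.19, adjusted p = 0.22) did not pass. Within the hybrids the alleles did differ. The C57BL/6J allele had 32.6 to 56.9 count equivalents (median 43.8) and the Cast/EiJ allele 55.8 to 86.5 (median 60.9).

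The Cast/EiJ allele of Socs3 was the higher one in 6 of 6 F1 libraries, although the ranges touched through F1 B6xCast replicate 1, which was the highest library for both alleles. The allelic difference was 0.54 (SE 0.11, 1.45-fold, adjusted p = 9.2e-04), and it passed without any 1 library. Of 368 allele-specific read pairs 60.6% were from Cast/EiJ (Wilson 95% interval 55.5 to 65.5%). The F0 difference and the allelic difference did not differ beyond their error (-0.22, 95% interval -0.66 to 0.22, adjusted p = 0.53), so the allelic call and the missed F0 call are not shown to differ.

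Gfap (chr11:102748650-102762226, minus strand), the intermediate filament of astrocytes and of reactive Müller glia, differed between strains, between alleles and between generations. It had 189, 216 and 192 count equivalents in F0 C57BL/6J and 118, 155 and 154 in F0 Cast/EiJ. No Cast/EiJ library reached the lowest C57BL/6J one. The strain difference was -0.49 (SE 0.14, 1.40-fold lower in Cast/EiJ, adjusted p = 0.027), and it was lost without C57BL/6J replicate 2 or 3 or Cast/EiJ replicate 1 (adjusted p 0.058 to 0.099).

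The alleles of Gfap in the hybrids leaned the other way. In F1 B6xCast the C57BL/6J allele had 53.3, 64.5 and 75.7 count equivalents and the Cast/EiJ allele 74.0, 100 and 128. In F1 CastxB6 the C57BL/6J allele had 96.9, 62.4 and 90.8 and the Cast/EiJ allele 89.3, 97.0 and 111. The Cast/EiJ allele was higher in 5 of 6 libraries, the exception being F1 CastxB6 replicate 1, and the ranges overlapped. The allelic difference was 0.44 (SE 0.13, 1.36-fold higher, adjusted p = 0.011), and without F1 CastxB6 replicate 2 its adjusted p was 0.054. Of 729 allele-specific read pairs 56.8% were from Cast/EiJ (Wilson 95% interval 53.2 to 60.3%).

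The test of the F0 difference against the allelic one gave -0.93 for Gfap (SE 0.24, 95% interval -1.43 to -0.42, adjusted p = 0.015), so the opposite signs were unequal beyond the spread between libraries. Without Cast/EiJ replicate 1, the lowest Cast/EiJ library, it was -0.80 with an adjusted p of 0.052. An antisense gene, Gm17536, overlaps Gfap, with a mean of 44.3 scaled count equivalents in F0 C57BL/6J, 11.3 in F0 Cast/EiJ and 24.7 and 25.2 in the F1 crosses. Since the strand was not kept, reads of the shared stretch cannot be assigned with certainty, and the part of this gene in the Gfap values was not tested.

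**Figure D3:**
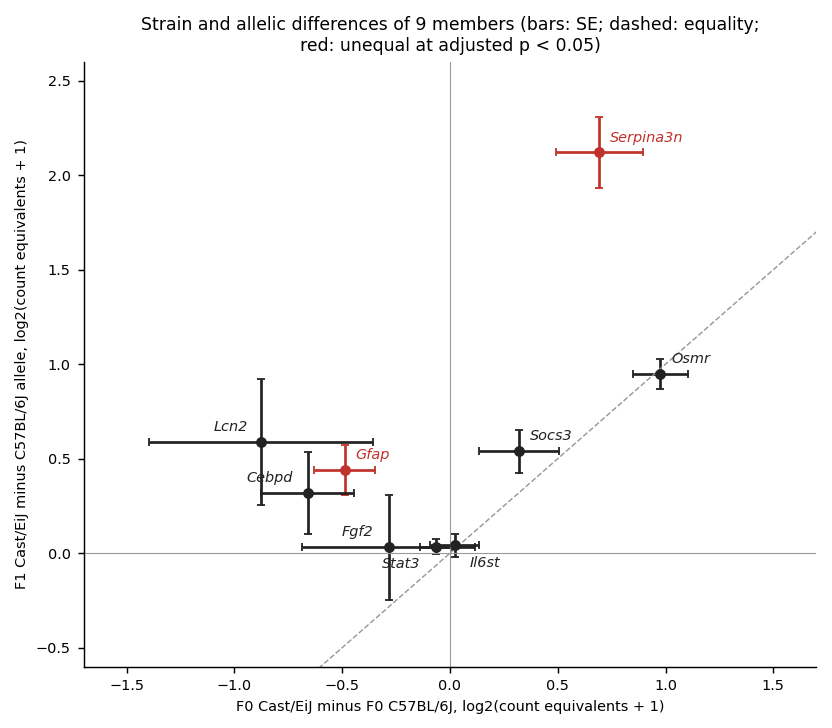
F0 strain difference (x axis) and F1 allelic difference (y axis) of the 9 genes tested in both, each Cast/EiJ minus C57BL/6J on the log2(count equivalents + 1) scale, with bars of 1 SE and a dashed line of equality. Osmr lies on the line (0.98 and 0.95), and Gfap (-0.49 and 0.44) and Serpina3n (0.69 and 2.12), drawn in red, lie above it by more than their error.

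Total Gfap was also lower in the hybrids than in either strain. The F1 B6xCast libraries had 65.0, 83.9 and 104 scaled count equivalents and the F1 CastxB6 libraries 92.6, 78.8 and 100.8, against 117 to 217 over the 6 F0 libraries. All 6 F1 libraries were below the lowest F0 library. The difference was -0.95 from the mean of the strains (SE 0.12, 1.93-fold lower, adjusted p = 2.3e-04), -1.19 from F0 C57BL/6J (adjusted p = 1.9e-04) and -0.70 from F0 Cast/EiJ (adjusted p = 0.0043), and it passed without any 1 library.

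The list of oligodendrocyte markers, which in a retina come with the optic nerve head where Gfap-rich astrocytes lie, were highest in F0 C57BL/6J as well. Their 6 genes summed to 670 to 725 scaled count equivalents in F0 C57BL/6J, 359 to 392 in F0 Cast/EiJ and 493 to 601 in the hybrids. The 2 of them that were tested, Mbp and Cnp, had differences of -1.45 and -1.60 and were both lower in Cast/EiJ (16.6% over all genes). In the hybrids, where the alleles share their cells, each also had a lower Cast/EiJ allele (23.5% over all genes), with a median of -1.29. The astrocyte list summed to 1607 to 1882 in F0 C57BL/6J, 1948 to 2212 in F0 Cast/EiJ and 1801 to 2055 in the hybrids. Most of it was Aqp4, named after its values were seen, which is also in the Müller glia list. Aqp4 had means of 1272 in F0 C57BL/6J and 1654 in F0 Cast/EiJ, whereas Aldh1l1 had 172 and 36.5. The sum is therefore not read as a level of astrocytes. The part of these cells in the Gfap differences was not tested. In totals of whole retinas, fewer cells of a type and less RNA per cell cannot be told apart.

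Serpina3n (chr12:105644939-105652539, plus strand), a secreted inhibitor of serine proteases and a marker of reactive astrocytes, had the largest allelic difference of the 9 genes. The F0 C57BL/6J libraries had 37.8, 37.0 and 47.3 count equivalents and the F0 Cast/EiJ libraries 78.4, 65.5 and 55.9. The strains did not overlap, and the difference of 0.69 (SE 0.20, 1.62-fold higher in Cast/EiJ, adjusted p = 0.028) was lost without C57BL/6J replicate 1 or 2 or Cast/EiJ replicate 1 or 2 (adjusted p 0.065 to 0.090) and with DESeq2 (adjusted p = 0.057).

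In the hybrids the C57BL/6J allele of Serpina3n had 6.95 to 19.0 count equivalents (median 14.4) and the Cast/EiJ allele 53.6 to 74.1 (median 61.7). The ranges did not overlap, and the Cast/EiJ allele was higher in 6 of 6 libraries. The allelic difference was 2.12 (SE 0.19, 4.35-fold, adjusted p = 9.0e-08), and of 351 allele-specific read pairs 80.3% were from Cast/EiJ (Wilson 95% interval 75.9 to 84.2%). The Cast/EiJ allele was thus near the level of F0 Cast/EiJ, whereas the C57BL/6J allele was well below F0 C57BL/6J. The F0 difference minus the allelic one was -1.43 (SE 0.35, adjusted p = 0.011), and this passed under all 18 alternatives.

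The total of Serpina3n in the hybrids, 32.2 to 47.3 scaled count equivalents, was at the level of F0 C57BL/6J (37.2 to 47.4) and below F0 Cast/EiJ (55.7 to 77.9). The fitted difference was -0.77 from F0 Cast/EiJ (SE 0.16, adjusted p = 0.0029) and -0.08 from F0 C57BL/6J (95% interval -0.42 to 0.26, adjusted p = 0.76). From the mean of the strains it was -0.43 (SE 0.13, adjusted p = 0.048), which passed in 2 of the 12 fits that left out a library, those without Cast/EiJ replicate 3 or F1 B6xCast replicate 1, and the adjusted p ranged from 0.031 to 0.12 over the 18 alternatives. The 10 other Serpina3 genes of the tables, near relatives that could share reads with it, summed to 3.60 to 4.87 scaled count equivalents in F0 C57BL/6J, 10.6 to 18.5 in F0 Cast/EiJ and 11.0 to 20.8 in the hybrids. None of the 10 had enough in F0 to be tested. Between the alleles 2 were tested and 1 passed, Serpina3h, named after its values were seen, with a higher Cast/EiJ allele (3.34, SE 0.27, adjusted p = 2.3e-08), the same direction as Serpina3n. Its level was low, with a mean of 7.59 scaled count equivalents in F0 Cast/EiJ, and the part of shared reads in the Serpina3n values was not tested.

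Lcn2 (chr2:32240153-32243317, minus strand), the iron-binding lipocalin of the acute phase, varied widely between libraries. It had 48.1, 25.5 and 38.5 count equivalents in F0 C57BL/6J and 27.1, 7.21 and 34.9 in F0 Cast/EiJ. Cast/EiJ replicate 2 stood far below all other F0 libraries, and the strains overlapped. The strain difference of -0.88 (SE 0.52, adjusted p = 0.23) did not pass, and without that library it was -0.23. The allelic difference of 0.59 (SE 0.33, adjusted p = 0.16) did not pass either, with the Cast/EiJ allele higher in 5 of 6 libraries. The exception, F1 CastxB6 replicate 2, decided the allelic call, since without it the allelic difference was 0.95 (adjusted p = 0.034). With 96 allele-specific read pairs in all, 60.4% from Cast/EiJ, the Wilson 95% interval ran from 50.4 to 69.6%.

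Set side by side over the 10 genes, total expression in the hybrids was below the mean of the F0 strains in 4 genes (Gfap, Edn2, Stat3 and Serpina3n) and above it in none by the limma test. Of 14713 genes tested, 12.7% passed, 7.91% higher and 4.81% lower in F1. The median was -0.36 over the 10 genes and 0.02 over all genes. Against F0 C57BL/6J alone 5 genes passed, with Gfap, Edn2, Stat3 and Cebpd lower and Osmr higher (background 20.5%, 11.0% higher and 9.45% lower), and against F0 Cast/EiJ alone 4 passed, Gfap, Serpina3n, Osmr and Stat3, all lower (background 32.9%, 18.2% higher and 14.7% lower). These comparisons share the F1 libraries, and Edn2 entered them through the F0 C57BL/6J libraries alone. Cebpd against F0 C57BL/6J (-0.62, adjusted p = 0.047) passed in 4 of the 12 fits that left out a library, with an adjusted p between 0.011 and 0.17. Stat3 against F0 Cast/EiJ was lost without Cast/EiJ replicate 2 or 3, F1 B6xCast replicate 2 or F1 CastxB6 replicate 2 (adjusted p 0.051 to 0.094).

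Which strain was the mother made no detectable difference. Of the 9 genes tested for a difference between maternal and paternal allele, 0 passed with limma and 0 with edgeR, and 0 had an unadjusted p under 0.05 with either tool, against a background of 0.492%, 0.179% with a higher and 0.313% with a lower maternal allele. The widest interval was that of Lcn2, -0.70 to 0.72, and the narrowest that of Stat3, -0.04 to 0.13. Between the reciprocal crosses 0 of the 10 genes passed with limma, edgeR or DESeq2 (background 0.0884%, 0.0272% higher and 0.0612% lower in F1 CastxB6). Stat3, with a difference of -0.12 (F1 CastxB6 minus F1 B6xCast), had an unadjusted p of 0.049 with limma, and no other gene was under 0.05 with any of the 3 tools.

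The rest of the pathway was read from lists of genes by role. Of the 7 interleukin-6 family ligands, Il6 and Osm, the ligand of the Osmr receptor, stayed under 1 scaled count equivalent in every library, and both are named here after their values were seen. In F0, 0 of 3 ligands tested passed with limma or DESeq2 and 0 of 2 with edgeR, with 0 at an unadjusted p under 0.05. Between the alleles 2 of 2 tested passed with limma and with edgeR, each with a higher Cast/EiJ allele (23.5% over all genes). These were Clcf1 (0.75, SE 0.17, adjusted p = 0.0013) and Ctf1 (1.08, SE 0.21, adjusted p = 4.1e-04), named after their values were seen. Of the other receptors of the family 3 of 5 were tested in F0, and 0 passed with the 3 tools while 1 had an unadjusted p under 0.05. Among 12 genes of JAK-STAT signalling 2 were higher and 1 lower in Cast/EiJ (17.2% and 16.6% over all genes). The lower one was Socs2, another inhibitor of the SOCS family. It had 165 ± 11.3 scaled count equivalents in F0 C57BL/6J and 67.4 ± 7.89 in F0 Cast/EiJ (SD, n = 3 each), a difference of -1.28 (SE 0.14, adjusted p = 2.1e-04). The median of that list was 0.08.

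The other genes of the endothelin system are ligands, receptors and converting enzymes. With limma 2 of 6 were higher in Cast/EiJ and 0 lower (17.2% and 16.6% over all genes), and with edgeR 1 was lower. Their median was -0.21. The FGF receptors and their partners had 1 of 6 higher and 1 lower with limma (17.2% and 16.6% over all genes), with a median of 0.46. The higher one was Sdc4, the heparan sulphate proteoglycan syndecan-4 that serves as a co-receptor of FGF2, at 642 ± 42.4 scaled count equivalents in F0 C57BL/6J and 1734 ± 21.1 in F0 Cast/EiJ (difference 1.44, SE 0.07, adjusted p = 1.1e-06).

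A list of 20 other genes of reactive glia and injury, 19 of them matched, had members that moved in both directions. Of 14 tested in F0, 6 were lower and 2 higher in Cast/EiJ (16.6% and 17.2% over all genes), with a median of -0.60 against 0.03 over all genes. Between the alleles 7 of 14 were lower and 3 higher (23.5% each over all genes), with a median of -0.37. These lists were not tested as groups. The metallothionein Mt1 had 668 ± 12.8 scaled count equivalents in F0 C57BL/6J and 214 ± 28.9 in F0 Cast/EiJ (difference -1.64, adjusted p = 8.2e-06). The stress-induced transcription factor Atf3 had 69.3 ± 19.5 and 9.09 ± 3.27 (difference -2.80, adjusted p = 2.3e-04), and the intermediate filament gene Nes had 82.6 ± 12.4 and 27.8 ± 7.63 (difference -1.56, adjusted p = 0.0014). The other named gene of this list is Mt2, a second metallothionein, with a difference of -1.25 (adjusted p = 7.3e-04). The F1 against F0 difference was 0.13 for Mt1 (adjusted p = 0.46), 0.27 for Atf3 (adjusted p = 0.44) and -0.04 for Nes (adjusted p = 0.92), and whether these differed from that of Gfap was not tested. In that comparison 1 of the 14 genes was lower in F1 with limma and 2 with DESeq2, and 0 were higher with either. Over all genes 4.81% were lower and 7.91% higher with limma. The gene called by limma was the complement component C3, named after its values were seen, with means of 39.8 and 40.4 scaled count equivalents in F0 C57BL/6J and F0 Cast/EiJ and of 21.5 and 22.7 in F1 B6xCast and F1 CastxB6 (difference -0.81, SE 0.16, adjusted p = 0.0053).

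Markers of the cells that could carry these genes also differed between classes. The 9 microglial markers summed to 370 to 405 scaled count equivalents in F0 C57BL/6J, 191 to 271 in F0 Cast/EiJ and 209 to 255 in the hybrids, and 5 of 7 tested were lower in F0 Cast/EiJ (16.6% over all genes), among them the complement genes C1qa (-1.86), C1qb (-1.39) and C1qc (-1.33) and the integrin Itgam (-1.29). The purinergic receptor P2ry12, named after its values were seen, had means of 21.1 in F0 C57BL/6J and 30.1 in F0 Cast/EiJ (difference 0.52, adjusted p = 0.18) and of 3.29 and 4.30 in the F1 crosses. The 10 Müller glia markers summed to 61590 to 74751 in F0 C57BL/6J, 55721 to 63393 in F0 Cast/EiJ and 61478 to 66537 in the hybrids. Of these markers 4 were lower and 1 higher in F0 Cast/EiJ (16.6% and 17.2% over all genes). Of 6 astrocyte markers 1 was lower, Aldh1l1, an astrocytic folate enzyme (-2.22), and 1 higher (16.6% and 17.2% over all genes). The higher one was Aqp4 (0.38, adjusted p = 0.0098), which is also the higher one of the Müller glia list. All markers of microglia, astrocytes and Müller glia were above 1 count equivalent in at least 1 library.

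Lists for other tissues and cells differed between classes as well, not all in 1 direction. The blood markers summed to 690 to 1044 scaled count equivalents in F0 C57BL/6J, 375 to 636 in F0 Cast/EiJ and 283 to 381 in the hybrids. They did not move together between the strains. Hba-a2 had means of 310 in F0 C57BL/6J and 10.2 in F0 Cast/EiJ, whereas Hba-a1, named after its values were seen, had 248 and 362. The markers of the retinal pigment epithelium summed to 215 to 257 in F0 C57BL/6J, 79.8 to 106 in F0 Cast/EiJ and 118 to 235 in the hybrids. The neutrophil list, whose cells store Lcn2, summed to 203 to 234, 109 to 170 and 175 to 203 in the same order, but nearly all of it was the protease Mmp9, which is not particular to these cells. Of its other 4 genes 3 were under 1 in every library and Ngp reached at most 3.99, so the defining neutrophil markers were at or near 0.

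The lens list ran from 11.6 to 158 in F0 C57BL/6J, from 69.8 to 209 in F0 Cast/EiJ and from 82.0 to 173 in the hybrids, with 0 of 2 genes tested passing in F0 with limma or DESeq2, 0 of 1 with edgeR and 0 at an unadjusted p under 0.05. The endothelial list summed to 1907 to 2733, 2901 to 3687 and 2402 to 3177, and most of it was the receptor Kdr. Of the 5 genes of this list 1 was higher and 2 were lower in F0 Cast/EiJ (17.2% and 16.6% over all genes). The part of these cells in the strain and F1 differences above was not tested.

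**Figure D4:**
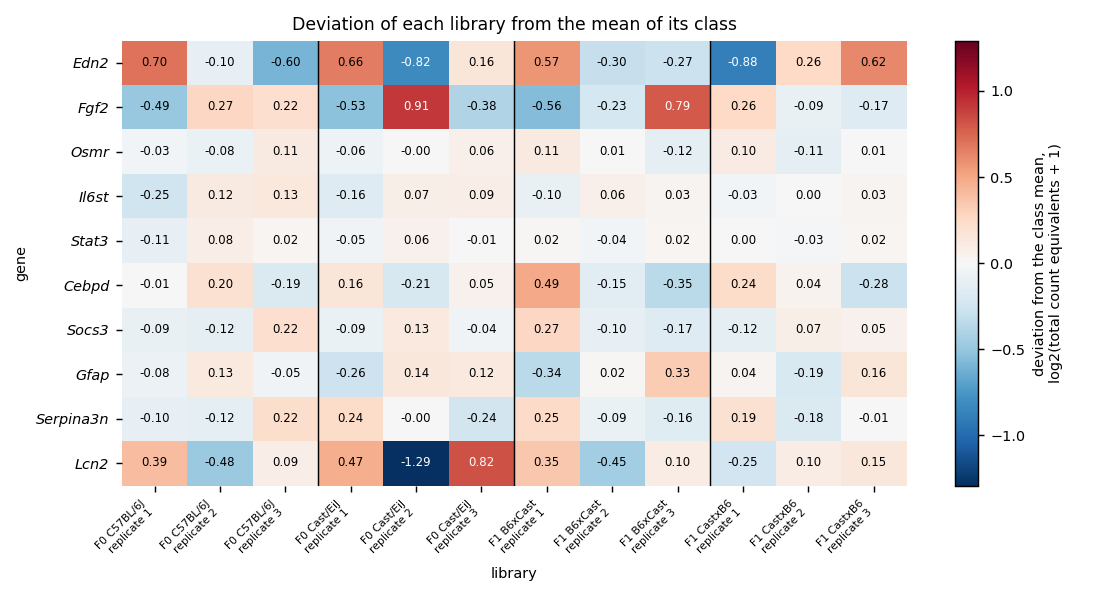
Deviation of each of the 12 libraries from the mean of its class for the 10 genes, on the log2(total count equivalents + 1) scale, with red above and blue below the class mean. Lcn2 in F0 Cast/EiJ replicate 2 (-1.29) is the widest deviation, Stat3, Il6st and Osmr vary little, and no column is of 1 colour.

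Since genes of this kind may answer to the handling of a retina, the spread between replicate libraries was compared with that of all genes. The SD pooled over the 4 classes was 0.68 for Edn2, 0.65 for Lcn2 and 0.58 for Fgf2, at percentiles 96.1, 95.8 and 94.5 of the 14713 genes, whose median SD was 0.15. All 3 are low in count. Gfap had an SD of 0.23 (percentile 71.0), Serpina3n 0.21 (67.7), Cebpd 0.29 (78.8) and Socs3 0.17 (58.0), while Il6st, Osmr and Stat3 were at 0.14, 0.10 and 0.06.

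Part of such a spread is the error of the estimate itself, which the authors' model gives as a posterior SD. In F0 the SD between libraries on the log2 expression scale was 0.93 for Lcn2 against a posterior SD of 0.38, a ratio of 2.45, and 0.17 for Il6st against 0.04, a ratio of 3.99. For the other 8 genes the ratio was between 0.52 and 1.31, so that their libraries differed about as much as the estimates were uncertain.

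The 10 genes did not rise or fall together from library to library. The mean deviation over them was between -0.13 in F1 B6xCast replicate 2 and 0.11 in F1 B6xCast replicate 1, and in the latter 6 genes were the highest of their class while Gfap, Fgf2 and Il6st were the lowest. Over the 12 libraries the deviations of Gfap had a Pearson r with those of the other 9 genes from -0.68 (Cebpd) to 0.69 (Fgf2), given as a description of points that share libraries. Of the 10255 genes whose mean reached 100 scaled count equivalents, the deviations most like those of Gfap were those of Churc1 (r = 0.95), Psmd7 (r = 0.93) and Mre11a (r = 0.93). As the highest of 10255 correlations over 12 libraries, these values are large by selection, and no test was made.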

How the data were processed

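The 10 genes, the lists and the alternatives were chosen with earlier results of these data known. Per the labels and the study's methods, poly(A) RNA was primed with random hexamers and sequenced as paired reads of 101 bases. The authors trimmed reads with Trim Galore 0.2.6, mapped them with Bowtie 0.12.9 against transcriptomes built on NCBI37 for each F0 strain and for the hybrid, and used MMSEQ to estimate expression. The signal values used here are the count equivalents, normalised and deposited by the authors. The natural log of expression and its posterior SD were estimated and deposited by the authors, and its exponential served as FPKM. Unique hits are a count of read pairs, deposited by the authors without normalisation. The deposited MMDIFF table holds model probabilities and a Bayes factor of the authors' own comparisons and was not used.

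Limma 3.58.1 in R 4.3.3 was run on log2(count equivalents + 1), with Benjamini-Hochberg adjustment over all autosomal genes tested and calls under 0.05. F0 strains were compared over genes that reached 10 count equivalents in 3 or more libraries. Alleles, trans and parent-of-origin differences came from 1 fit of F0 libraries and F1 alleles over genes averaging 10 or more unique hits that tell the alleles apart per F1 library, blocking on the library (consensus correlation 0.135). F1 totals and F0 libraries, scaled to 1 total, shared another fit. Intervals are at 95%, and Wilson intervals (scipy 1.17.1) cover counting error only. Alternatives used edgeR 4.0.16, DESeq2 1.42.0, another pseudocount, no filter, TMM, the log expression, a replicate block and libraries left out in turn. The fits against 1 F0 strain, the F0 contrast within the 12-library fit and a filter on the F0 mean were added after seeing the data. The fits were tested on simulated data. All 10 genes are named. The rule for the other lists was to name genes called in F0 with a log2 difference of at least 1, at most 4 per list. Other genes of these lists are named outside this rule, after their values were seen. Other tables and sequences used Python 3.11.15 with numpy 2.4.6, pandas 2.3.3 and matplotlib 3.10.9.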

Additional observations from a re-analysis of the deposited data

Results flagged for a closer look

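Gfap was marked because its difference between the F0 strains and its difference between the alleles of the hybrids were unequal by their own test. The first minus the second was -0.93 (SE 0.24, limma adjusted p = 0.015), with Cast/EiJ lower in F0 and the Cast/EiJ allele higher in 5 of 6 F1 libraries. Serpina3n was marked by the same test, at -1.43 (SE 0.35, adjusted p = 0.011), with Cast/EiJ higher in both settings and by more between the alleles. Of all genes tested 14.0% passed this test.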

How the results depend on the processing

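The number of F0 calls among the 10 genes depended on the settings. It was 5 as reported, 1 (Osmr) without a filter on low values, 3 with DESeq2 and from 2 to 4 when a library was left out, with Osmr and Edn2 kept in all 6 of those fits. The number of F1 against F0 calls was 4 as reported, 2 on the deposited log expression, 5 and 4 against F0 C57BL/6J and F0 Cast/EiJ alone, and 3 to 4 with a library left out. The trans calls were 2, and 1 to 2 with a library left out. The allelic calls were 4, 5 without a filter (Edn2 added, with a lower Cast/EiJ allele) and 4 in each fit that left out a library, where Lcn2 took the place of Gfap without F1 CastxB6 replicate 2. No called direction reversed.

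Over all genes, calls changed by more than 1.5 times in F0 without a filter (3161 against 4887), for parent of origin with edgeR (40 against 66) and between the crosses with edgeR and DESeq2 (6 and 21 against 13). Same-numbered libraries correlated in their deviations at r from 0.04 to 0.30 among F0 C57BL/6J, F0 Cast/EiJ and F1 B6xCast (9 pairs) and from -0.11 to 0.02 with F1 CastxB6 (9 pairs). The main fits did not take the numbers as pairs, although 6 of the 18 pairs were above 0.1. With the replicate number as a block F0 had 4 calls, Cebpd being lost at an adjusted p of 0.0503, and the allelic, trans and F1 against F0 counts stayed at 4, 2 and 4.

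F0 Cast/EiJ replicate 2 decided 2 missed calls, since without it Lcn2 passed against the mean of the F0 strains (-0.78, adjusted p = 0.032) and Edn2 against F0 Cast/EiJ (-1.46, adjusted p = 0.038). A comparison of F1 with F0 on unique hits was not run, since in F1 these count only pairs that tell the alleles apart. Depth limited Edn2, Fgf2 and Lcn2, with means of 4.0 to 16.2 allele-specific read pairs per F1 library.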
